A study of Mus musculus with 16 samples.

Results

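Histone genes encode the proteins around which DNA is wound, and their transcripts were described here in leukemic and in other marrow cells of mice with and without host IL-6. Every row of the tumor and stroma tables whose symbol names an H1, H2A, H2B, H3 or H4 gene was taken, under new symbols (H4c12, H2ac7) or older ones (Hist1h4m, H2afz). This gave 71 of the 15080 genes of the tumor table and 73 of the 13344 genes of the stroma table, and 73 genes of 16612 in either. Hist1h2bq and H2al1m were in the stroma table alone. Of the 73 genes, 63 were taken as replication-dependent genes and 10 as variants. The split was by kind of gene and not by position, as the variant H2afj lies near H4f16 on chromosome 6. The pseudogene H2bu1-ps was not counted. With a mean normalized count over 10, 70 members were tested in tumor and 70 in stroma.

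The leukemia was a BCR-ABL+, Arf-/- B-cell acute lymphoblastic leukemia (B-ALL) line that carries mCherry, and C57BL/6J mice received 500000 cells of it by tail vein. The hosts were WT or IL-6 KO, 6 to 8 weeks old and otherwise untreated, and bone marrow was taken from femur and tibia 8 days later. Live mCherry+ cells were sorted as tumor and all live mCherry- cells as stroma, after lysis of red blood cells, which gave 16 libraries in 4 groups of 4. The groups were WT tumor, IL-6 KO tumor, WT stroma and IL-6 KO stroma. Both kinds of cells were sorted from the collected marrow. The labels do not say which mouse gave each library, or whether a tumor and a stroma library share a mouse. The knockout was in the host, and the leukemic cells in both kinds of host were of the same line. Stroma here was therefore a mixture of marrow cells, not a stromal cell type. Il6 was in neither table, so the genotype labels could not be checked on it.

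Replication-dependent histone genes are intronless and sit in clusters, and their mRNAs are made in S phase, when new DNA must be packaged. Those mRNAs end in a stem-loop in place of a poly(A) tail, which is bound by the stem-loop binding protein SLBP and lost when replication stops. H1 is the linker histone, and H2A, H2B, H3 and H4 form the nucleosome core. Variant genes such as those of H3.3, H2A.Z and macroH2A are spliced or polyadenylated like other genes and are used throughout the cell cycle. The libraries were made from rRNA-depleted RNA and not by poly(A) selection, so that mRNA without a tail could be captured.

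The stem-loops are shown because they set the replication-dependent genes apart from the variants independently of any count. A stretch of 16 bases, in which 6 bases starting with GG pair with 6 bases ending in CC around a loop of 4, was looked for in the annotated 3' UTRs (GENCODE M21, mm10). It was present in 43 of the 51 replication-dependent genes with an annotated 3' UTR and in 2 of 10 variants, against 775 of 21123 protein-coding genes (3.67%). Capitals mark the paired stem and lower case the loop, on the sense strand. In the labels, most refers to the replication-dependent genes in which such a stretch was found.
Most H1, H2A, H2B and H3 genes (24 genes): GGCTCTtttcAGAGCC
H2B and H3 genes with another loop (5 genes): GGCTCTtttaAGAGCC
Most H4 genes (7 genes, among them H4c4 and Hist1h4m): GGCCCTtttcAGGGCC
H4c2 and H4c11: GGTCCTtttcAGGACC
H4c9 and H4c14: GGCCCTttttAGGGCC
H2afx, the gene of H2A.X: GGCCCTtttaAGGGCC
The H4 stems thus differed in sequence from those of the other replication-dependent classes. H2afx, whose protein marks DNA breaks, had the stem of most H4 genes, and H2afj held a stretch that met the rule with an unrelated sequence (GGCCACctgtGTGGCC). The annotated model of H4c12 held the coding region only, so that no stem-loop could be looked for there.

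Promoters were described as well, since 11 of 13 H4 genes were called higher in IL-6 KO tumor and 1 lower. Whether promoter sequence had a part in these differences was not tested. RefSeq promoters (GRCm38.p6, 250 bases before to 50 bases after the start) were matched for 67 of the 73 members, and both strands were searched. The letters GGTCCG, which are part of an element known from H4 promoters, were in 11 of 12 H4 promoters, with H4c1 the one without it, and, among the other replication-dependent genes, in 1 H2B and 1 H3 promoter and no H1 or H2A promoter. Of 9 variant promoters 3 held them, those of H2afv, Macroh2a1 and Macroh2a2. They were in 8.25% of all 32851 promoters. The octamer ATTTGCAT was in 7 of 16 H2A and 6 of 16 H2B promoters and in none of the 12 H4, 10 H3 and 5 H1 promoters, against 1.74% of all promoters. CCAAT was in every one of the 5 H1, 16 H2A, 16 H2B and 10 H3 promoters, in 3 of 12 H4 promoters and in 37.4% of all. TATAA was in 11 of 12 H4, 15 of 16 H2A, 4 of 5 H1, 12 of 16 H2B and 5 of 10 H3 promoters, in 1 of 9 variant promoters and in 24.9% of all. The 90 bases before the start are given for 3 H4 genes and, for contrast, for H2bc18, with GGTCCG, ATTTGCAT and TATAA in either orientation in capitals.
H4c12, chr13:21750554-21750643, minus strand: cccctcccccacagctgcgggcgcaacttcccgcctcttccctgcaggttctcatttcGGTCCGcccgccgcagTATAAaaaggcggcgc
Hist1h4m, chr13:21811656-21811745, plus strand: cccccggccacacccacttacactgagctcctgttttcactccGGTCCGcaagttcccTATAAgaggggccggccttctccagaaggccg
H4c4, chr13:23581478-23581567, plus strand: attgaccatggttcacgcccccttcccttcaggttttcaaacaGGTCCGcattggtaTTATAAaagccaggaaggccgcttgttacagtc
H2bc18, chr3:96269610-96269699, plus strand: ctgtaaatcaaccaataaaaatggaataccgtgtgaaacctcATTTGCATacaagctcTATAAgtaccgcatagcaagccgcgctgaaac
In these 3 H4 promoters GGTCCG lay just before TATAA, which overlapped its own reverse form in H4c4.

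Values are normalized counts, which the authors scaled separately in each compartment, so that levels of tumor and stroma were set side by side without a test. Summed over all genes, the tumor libraries held 38817792 to 44552085 normalized counts in WT and 47267047 to 55592959 in IL-6 KO. The stroma libraries held 8805689 to 17470735 in WT and 33973016 to 44191950.0 in IL-6 KO, where Rn7s1, a 7SL RNA gene, took 71.5% to 79.0% of the counts of libraries 1 to 3 and a gene without a symbol 61.5% of those of library 4. In WT stroma Rn7s1 was also the largest gene of libraries 3 (37.6%) and 4 (50.1%). A gene without a symbol was the largest of WT stroma 1 (20.3%) and 2 (26.1%). In the tumor libraries a gene without a symbol took 13.1% to 22.7%. The read depth itself was not given in the files. Many histone genes are near-identical, and reads of 75 bases that fit several copies were divided among them by the quantification. Of the 63 replication-dependent genes, 26 had fewer than 50% of their 75-base stretches to themselves, and values of such genes are uncertain. Among the genes named with values these were H4c12, Hist1h4m, Hist1h4n, H2ac7, H2ac12, H2ac13, H2ac18, Hist1h2ap, H2bc11, H2bc12, Hist1h2br, H3c2, H3c10, H3c14 and H3c15, and H3c13 in a sum. In bulk RNA, fewer cells that express a gene and less RNA per cell cannot be told apart. The 11 B-lineage genes in the tumor table summed to between 143925 and 162657 per library, against 595 to 1709.8 in stroma. Stroma was rich in erythroid transcripts (60442 to 250857 summed over 13 listed genes), while of 8 mesenchymal and endothelial genes 5 were in the table and summed to 183 to 1662.

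Per kilobase of annotated transcript, the highest gene of each replication-dependent class stood above every variant, but levels within the classes ranged widely. In WT tumor the highest level of each class, in normalized counts per kb, was 148565 ± 7039.5 for Hist1h4m among H4 genes (SD, n = 4, here and for the following levels), 120232 ± 18552 for H2ac18 among H2A genes and 99514 ± 6144 for H3c2 among H3 genes. It was 73079 ± 4974 for H1f1 and 64585 ± 5030.2 for H2bc11. Of these 5 genes only H1f1 had at least 50% of its stretches to itself. Other replication-dependent genes were low by this measure, such as H2ac6 at 2353 ± 171, H4f16 at 1563 ± 199 and H2bu2 at 178 ± 96.2. The annotated transcripts of H2ac6 (2482 bases) and H4f16 (2863 bases) run 2010 and 2445 bases past the stem-loop. Their levels per kb therefore depend on that annotation and would be higher if counted to the stem-loop alone. Among variants, H2afz, the main H2A.Z gene, reached 21062 ± 2236 per kb and H2afx 12569.9 ± 828. The H3.3 genes H3f3a and H3f3b stood at 4791 ± 142 and 4678 ± 235, which did not differ beyond their spread. Per kb of annotated transcript both lay above H2ac6, H4f16 and H2bu2. In WT stroma H2afx (2942 ± 329.9) was above H2afz (747 ± 87.6), the reverse of their order in tumor, and the H3.3 genes again lay together at 484 ± 45.4 for H3f3b and 462 ± 52.0 for H3f3a.

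To ask whether the loss of host IL-6 went with a change of histone transcripts in leukemic cells, WT and IL-6 KO tumor were compared. Of the histone genes, 26 of 70 tested were higher in IL-6 KO tumor at an adjusted p under 0.05, against 10.6% of the 14493 genes tested, and 7 were lower, against 9.16% (limma with Benjamini-Hochberg adjustment over all genes). The median log2 difference of the members, IL-6 KO over WT, was 0.23, and that of all genes -0.01. Every IL-6 KO library lay above every WT library for 22 members and below for 4, against 13.6% and 12.0% of all genes. Among H4 genes 11 of 13 were called higher and 1 lower. Among the other replication-dependent genes 12 of 48 were higher and 5 lower, and among variants 3 of 9 were higher and 1 lower.

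How many members passed depended on the libraries and the scaling. With 1 library left out, the count of higher members was 36 (IL-6 KO tumor 2), 34 (WT tumor 1), 18 (IL-6 KO tumor 3), 17 (WT tumor 4 or IL-6 KO tumor 4) or 16 (WT tumor 2, WT tumor 3 or IL-6 KO tumor 1), while the H4 genes among them numbered 11 or 12 each time. Of all genes, between 5.74% and 12.9% were higher with 1 library left out. Quantile normalization left 16 higher members, 9 of them H4 genes, against 9.49% of all genes. Over all genes the tumor difference was correlated with GC content (Spearman's rho = 0.40 across 14211 genes, which share libraries). Its rho with log2 length was -0.05. Across the 61 replication-dependent genes tested the signs were the reverse, with a rho of -0.22 for GC content and 0.22 for log2 length. The replication-dependent members had a median GC content of 57.8% and a median length of 572 bases, against 49.1% and 3053 bases over all genes tested. Once the trends with GC content and length had been taken out of the libraries, 17 members were higher and 7 lower, against 10.1% and 4.56% of all genes, and the median of the members was 0.07 against 0.06 over all genes. Of the H4 genes, 8 were still called higher. Transcripts of other cells moved with genotype too, as 12 of 15 neutrophil genes were higher in IL-6 KO tumor, their sum being 4983 to 5726 in WT and 7957 to 19228 in IL-6 KO libraries. Of the 9 monocyte genes 3 were higher, of the 11 B-lineage genes 1 was higher and 2 lower, and of the 9 erythroid genes 1 was lower. Their part in the result was not tested.

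H4c12 (chr13:21750194-21750505) changed most among the called genes that rose. Its normalized counts were 12408, 10743, 9632 and 11508 in WT and 23625, 25992, 26140.4 and 24018 in IL-6 KO tumor, with no overlap between the groups. The log2 difference was 1.18 ± 0.08 (SE, limma adjusted p = 7.43e-05). H4c12 is uncertain, as 31.9% of its stretches were its own and it shared 68.1% of them with H4c1, which rose less. H4 genes with sequence of their own rose as well. H4c4 (chr13:23581598-23582735), with 96.3% unique stretches, stood at 43384, 35935, 38891 and 40252 in WT and 66625, 59002, 62235 and 63628 in IL-6 KO tumor. H4c14 (chr3:96261682-96263311), which lies in the cluster on chromosome 3 and shares no stretch with another gene, stood at 23977, 17797, 20412 and 20306 in WT and 38434, 25547, 37804 and 34507 in IL-6 KO tumor. Neither gene had overlapping groups, although the IL-6 KO tumor 2 library of H4c14 was nearest to WT.

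The differences of these genes were 0.67 ± 0.07 (SE, limma adjusted p = 0.000811) for H4c4 and 0.71 ± 0.13 (SE, limma adjusted p = 0.00768) for H4c14. H4f16 (chr6:136801553-136804415), a gene outside the main clusters, stood at 5237, 3974, 4577 and 4112 in WT and 7450.0, 6917, 7223 and 6940.1 in IL-6 KO tumor and also had groups that did not overlap. Its log2 difference was 0.68 ± 0.09 (SE, limma adjusted p = 0.00192). Among the other H4 genes H4c3 rose by 0.78 ± 0.12 (SE, limma adjusted p = 0.00365), H4c11 by 0.62 ± 0.07 (SE, limma adjusted p = 0.00136), H4c9 by 0.53 ± 0.11 (SE, limma adjusted p = 0.0115) and H4c1 by 0.52 ± 0.08 (SE, limma adjusted p = 0.0034). Hist1h4m and H4c8, the most abundant H4 genes, and H4c6 had smaller differences. Hist1h4m stood at 63169, 60487, 58781 and 56455 in WT and 76536, 72509.9, 76787 and 76182 in IL-6 KO tumor, a log2 difference of 0.34 ± 0.06 (SE, limma adjusted p = 0.00476). H4c8 and H4c6 rose by 0.34 and 0.38 (limma, adjusted p = 0.0156 and 0.00433). H4c2 was not called, at a difference of 0.21 ± 0.07 (SE, limma adjusted p = 0.0602) with overlapping groups. The remaining gene, Hist1h4n, is described with the genes that fell.

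**Figure D1:**
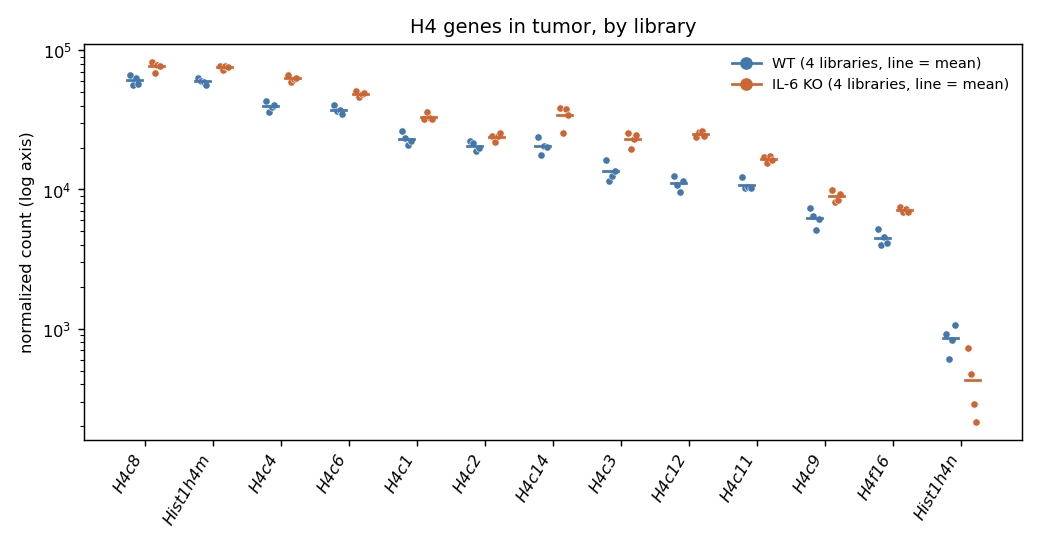
Normalized counts (log axis) of the 13 H4 genes in the tumor libraries, ordered by their WT mean, with 4 points and a line at the mean for each of WT and IL-6 KO. For 11 genes all IL-6 KO points lie above all WT points, H4c2 overlaps, and Hist1h4n, the least abundant of them, is lower.

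Among linker histones, H1f3 (chr13:23553262-23560686) was the gene that rose. It stood at 48725, 41120.3, 42599 and 44293 in WT and 78903, 48028, 76811 and 74221 in IL-6 KO tumor. The IL-6 KO tumor 2 library lay inside the WT range and the other 3 lay far above it, and the difference was 0.63 ± 0.15 (SE, limma adjusted p = 0.0168). H1f1, H1f2, H1f4 and H1f5, which made up most H1 transcripts, differed by 0.02 (H1f4) to 0.14 (H1f2) on the log2 scale, and none was called.

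Of the H2A genes 3 of 15 tested were higher and 2 lower, against 10.6% and 9.16% of all genes tested. H2ac6 (chr13:23681467-23683948), with 88.9% unique stretches, stood at 6205, 5231, 5897 and 6024 in WT and 9754, 6854, 8596 and 8909.5 in IL-6 KO tumor, with no overlap. Its difference was 0.54 ± 0.11 (SE, limma adjusted p = 0.00912). H2ac7 differed by 0.56 ± 0.17 (SE, limma adjusted p = 0.0437) and Hist1h2ap by 0.35 ± 0.10 (SE, limma adjusted p = 0.0293), both with overlapping groups and both uncertain (34.5% and 7.4% unique stretches). The libraries of H2ac13, which was not called, spread widely, at 39381, 15486, 16926 and 25478 in WT and 49625, 21203, 48138 and 51579 in IL-6 KO tumor. H2ac18, the H2A gene with the highest count, differed by 0.38 ± 0.12 (SE, limma adjusted p = 0.0547).

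Of the H2B genes 4 of 16 were higher (25.0%) and 2 lower (12.5%), against 10.6% and 9.16% of all genes tested. H2bc6 (gene span chr13:23583670-23621124) stood at 29507, 25936, 25283 and 27246 in WT and 55026, 31466, 40091 and 44100.2 in IL-6 KO tumor, where IL-6 KO tumor 2 was again closest to WT, and its difference was 0.63 ± 0.14 (SE, limma adjusted p = 0.0153). H2bc9 stood at 9982, 8874, 9097 and 9175 in WT and 16203, 11242, 13200.4 and 14109 in IL-6 KO tumor, with the same order of the IL-6 KO libraries and a difference of 0.55 ± 0.10 (SE, limma adjusted p = 0.00718). Hist1h2bp and H2bc3 rose by 0.41 and 0.20 (limma, adjusted p = 0.0336 and 0.0417). H2bc8, the H2B gene with the highest count, was not called at 0.23 ± 0.09 (SE, limma adjusted p = 0.0856).

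Of the H3 genes 4 of 12 were higher (33.3%) and 1 lower (8.33%), against 10.6% and 9.16% of all genes tested. H3c2, the most abundant, stood at 66980.3, 61324, 57929 and 60563 in WT and 75593, 74469, 68051 and 71758 in IL-6 KO tumor, without overlap and with a difference of 0.23 ± 0.06 (SE, limma adjusted p = 0.0319), which was near 0 (-0.02) once the trend with GC content and length was removed. H3c15 rose by 0.31 ± 0.08 (SE, limma adjusted p = 0.0303). H3c10 and H3c4 rose by 0.57 and 0.54 (limma, adjusted p = 0.0385 and 0.0442), the first without and the second with overlap of the groups. H3c10 is uncertain, with 6.5% unique stretches.

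One library stood apart within IL-6 KO tumor. IL-6 KO tumor 2 was the lowest of its group for 41 of the 61 replication-dependent genes tested and the highest for 17. Its median log2 difference from the mean of the other 3 was -0.16. The highest library of WT, WT tumor 1, was highest for 51 of 61 and lowest for 3, with a median of 0.21. Over all genes these medians were 0.02 and 0.01. Of the 26 members called higher, IL-6 KO tumor 1 and 3 exceeded every WT library for all 26, IL-6 KO tumor 4 for 25 and IL-6 KO tumor 2 for 21. The calls were made on these same libraries, so such counts are largely set by the selection and are no further support.

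**Figure D2:**
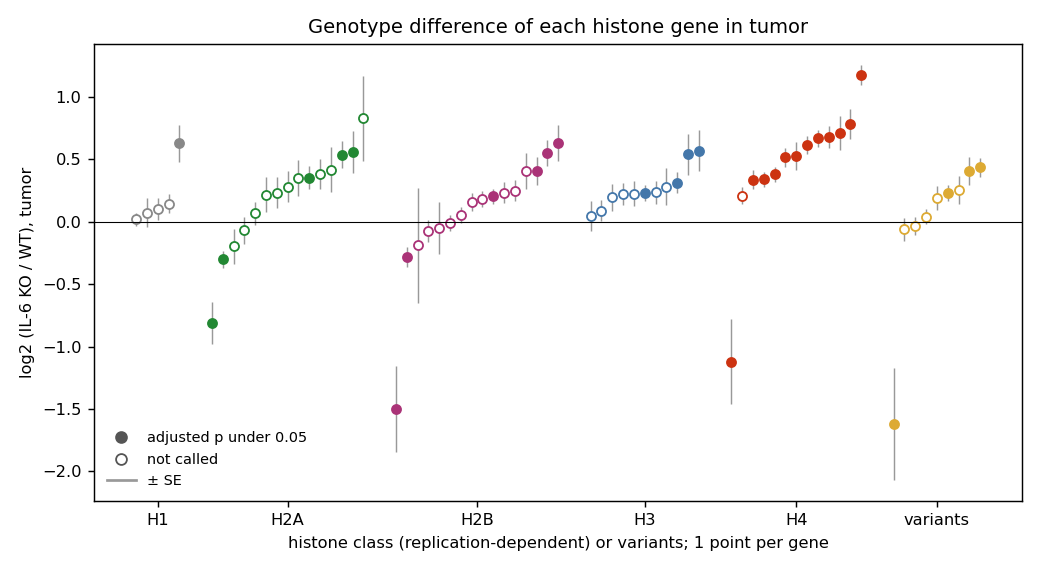
Log2 difference (IL-6 KO over WT) of each histone gene tested in tumor, ± SE, ordered within each replication-dependent class and within the variants, with filled points for an adjusted p under 0.05. Nearly all H4 points are filled and lie between 0.34 and 1.18, while most H1, H2A, H2B and H3 points are open. H3c14, listed at 0 in IL-6 KO libraries, is left out.

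Of the 7 members called lower, 6 were replication-dependent genes. H2ac21 (91.1% unique stretches) stood at 1305, 1358, 1401 and 1395 in WT and 1065, 1126, 1126 and 1117 in IL-6 KO tumor, a small drop without overlap (log2 difference -0.30 ± 0.07, SE, limma adjusted p = 0.0159). H2bu2, a gene of the small cluster on chromosome 11, was low at 70.3, 197, 77.1 and 93.8 in WT and 31.1, 47.0, 39.3 and 25.2 in IL-6 KO tumor and differed by -1.50 ± 0.34 (SE, limma adjusted p = 0.016). H2ac12 stood at 6804, 7728, 6008 and 6692 in WT and 3316, 5727, 3316 and 3555 in IL-6 KO tumor, with IL-6 KO tumor 2 nearest to WT, and differed by -0.81 ± 0.17 (SE, limma adjusted p = 0.0108). It had 10.0% of its stretches to itself and is uncertain.

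Several genes moved in the opposite direction to a near-identical copy. Hist1h4n stood at 919, 607, 825 and 1060.2 in WT and 732, 476, 287 and 216 in IL-6 KO tumor (difference -1.12 ± 0.34, SE, limma adjusted p = 0.0439), while Hist1h4m, with which it shared 82.0% of its stretches, rose. The sum of both differed by 0.33. H3c14 was listed at 449, 269.9, 301 and 0 in WT and 0, 0, 0 and 0 in IL-6 KO tumor, and none of its stretches was its own, so no fold is given. Summed with H3c13 and H3c15, which share them, the counts were 93352, 79125, 76326 and 81043 in WT and 97622, 107987, 91207 and 97434 in IL-6 KO tumor, a log2 difference of 0.26 with overlap. H2bc18 differed by -0.28 ± 0.08 (SE, limma adjusted p = 0.0353), and Gm42743, a lincRNA gene that shares 49.8% of the stretches of H2bc18, stood at 838, 607, 713 and 667 in WT and 3564, 3961, 2009 and 1864 in IL-6 KO tumor. Their sum differed by -0.09 and the groups overlapped. These sums were formed after the values had been seen and were not tested.

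Genes listed at 0 in one genotype were counted over the whole table. In tumor, 22 genes were listed at 0 in all IL-6 KO libraries with a WT mean of at least 50, of which 14 were annotated as pseudogenes, and 9 were at 0 in all WT libraries with an IL-6 KO mean of at least 50, of which 5 were pseudogenes. Among the former were 2 pseudogenes of variant histone genes, Gm8203 of H2afz and H3f3c of H3f3a.

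H2afz (chr3:137864487-137866922), which encodes the H2A.Z that marks promoters and other regulatory regions, stood at 26015, 21699.6, 20617 and 21729.8 in WT and 28975, 32068, 30103 and 30302 in IL-6 KO tumor, without overlap. It rose by 0.44 ± 0.08 (SE, limma adjusted p = 0.00618). Its pseudogene Gm8203, which shares 14.7% of the stretches of H2afz, was listed at 650.0, 711, 1236 and 1112 in WT and 0, 0, 0 and 0 in IL-6 KO tumor, and the sum of both differed by 0.38, again without overlap. The other H2A.Z gene, H2afv, was not called at 3499, 3448, 3775 and 3617 in WT and 3299, 3893, 3281 and 3551 in IL-6 KO tumor (difference -0.03 ± 0.07, SE, limma adjusted p = 0.772). H2afj rose by 0.41 ± 0.11 (SE, limma adjusted p = 0.0301), with IL-6 KO tumor 2 inside the WT range. Macroh2a1, whose protein carries a large macro domain and is associated with silent chromatin, rose by 0.23 ± 0.06 (SE, limma adjusted p = 0.0352), from 16338, 14962, 16200.2 and 17317 in WT to 18490.0, 18115, 20346 and 18945 in IL-6 KO tumor. Macroh2a2 was near the filter on low counts, at 30.5, 53.3, 22.6 and 16.5 in WT and 4.97, 7.52, 11.3 and 11.5 in IL-6 KO tumor, and was lower without overlap (-1.62 ± 0.45, SE, limma adjusted p = 0.0322).

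The H3.3 genes, which supply H3 outside S phase, were not called. H3f3b stood at 12186, 11004, 12274 and 11575 in WT and 11709.7, 12223, 12578 and 11867 in IL-6 KO tumor and differed by 0.04 ± 0.06 (SE, limma adjusted p = 0.654). H3f3a stood at 14148, 13497, 13624 and 13181 in WT and 12312, 11038, 14936 and 14269.8 in IL-6 KO tumor and differed by -0.06 ± 0.09 (SE, limma adjusted p = 0.68). Its pseudogene H3f3c, which shares 5.2% of the stretches of H3f3a, was listed at 1490.0, 2357, 1768 and 1978 in WT and 0, 0, 0 and 0 in IL-6 KO tumor. Their sum was lower in every IL-6 KO library than in every WT library, at 15638, 15854, 15392 and 15159 in WT and 12312, 11038, 14936 and 14269.8 in IL-6 KO tumor, a log2 difference of -0.25. H2afx differed by 0.19 ± 0.10 (SE, limma adjusted p = 0.182) and H1f0, the linker histone of non-dividing cells, by 0.25 ± 0.11 (SE, limma adjusted p = 0.139).

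A total over a class does not depend on how reads were divided among the members summed in it. It can still depend on copies outside the sum. Hist1h2ap shared 92.6% of its stretches with Hist1h2ao and H2ac18 88.9% with Gm20634. H2bc18 shared 49.8% with Gm42743, and H1f4 shared 22.7% with H2bc6, a gene of another class. The summed normalized count of the H4 genes was 308640.5 ± 20856 in WT and 435537 ± 20954 in IL-6 KO tumor (SD, n = 4, here and for the other classes), a log2 difference of 0.50 with no overlap. The H2B genes summed to 226197 ± 13710.4 in WT and 264505 ± 11268 in IL-6 KO tumor, a difference of 0.23, also without overlap. H1 genes differed by 0.19, H2A genes by 0.37 and H3 genes by 0.24, and in all 3 classes the groups overlapped. The spread of the H4 total (SD of log2 values) was 0.10 in WT and 0.07 in IL-6 KO tumor. As a mean of log2 counts over the members, in which low genes weigh as much as high ones, the difference was 0.45 for H4 and -0.28 for H3, which holds H3c14. No test was made of these totals. As a share of all normalized counts, replication-dependent genes took 3.39% to 3.75% in WT and 2.96% to 4.15% in IL-6 KO tumor. As shares the groups of H4 and H2B overlapped too, with H4 at 0.696% to 0.776% in WT and 0.73% to 0.963% in IL-6 KO tumor and H2B at 0.51% to 0.579% in WT and 0.467% to 0.595% in IL-6 KO tumor.

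**Figure D3:**
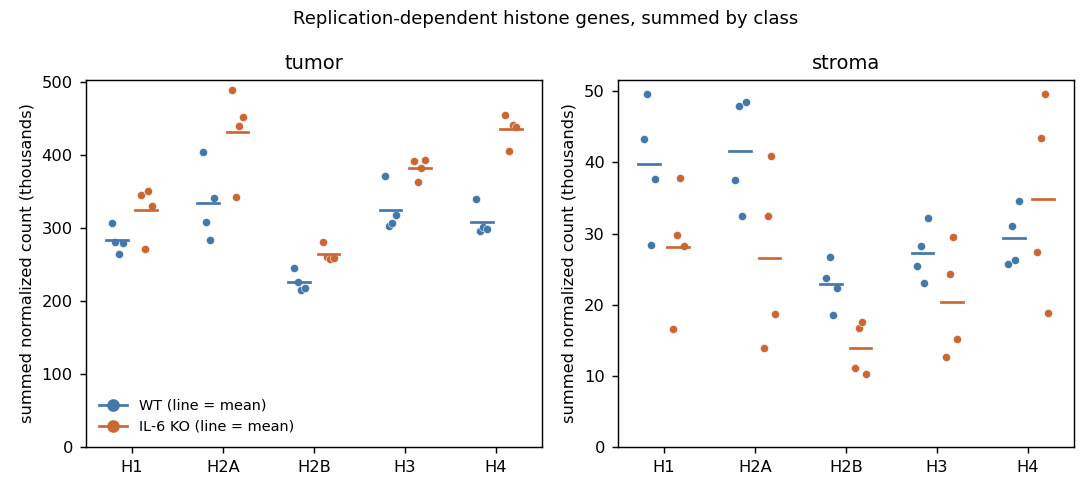
Summed normalized count, in units of 1000, of the replication-dependent genes of each class per library, with 4 points and a line at the mean for each of WT and IL-6 KO, in tumor (left) and stroma (right). The tables were scaled separately, so the axes are not comparable between panels. In tumor the summed H4 and H2B counts of the groups do not overlap, although their shares of all counts do, and in stroma H2B is the class whose groups do not overlap.

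Genes that make, process or remove histone mRNA were described next. Of 16 genes of histone gene activation and 3' end processing, 2 were higher (12.5%) and 1 lower (6.25%) in IL-6 KO tumor, near the shares of all genes. The one that fell was Slbp, whose product binds the stem-loop. Slbp stood at 5002, 5305, 5036 and 4763 in WT and 3050.5, 3786, 3014 and 2431 in IL-6 KO tumor, a log2 difference of -0.73 ± 0.12 (SE, limma adjusted p = 0.00419) with no overlap, while 49 of the 61 replication-dependent genes tested had a difference above 0. Npat, the co-activator of the histone clusters, was not called at -0.21 ± 0.09 (SE, limma adjusted p = 0.117). Sympk and Gon4l rose by 0.32 and 0.29 (limma, adjusted p = 0.0246 and 0.0382). Sympk encodes a scaffold of the cleavage complex.

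Of the 7 genes of histone mRNA decay 1 rose (14.3%) and 2 fell (28.6%), against 10.6% and 9.16% of all genes tested. Eri1, the exonuclease that trims the stem-loop, stood at 3784, 3783, 4418 and 3829 in WT and 2687, 2739, 2740.4 and 2599 in IL-6 KO tumor and differed by -0.55 ± 0.07 (SE, limma adjusted p = 0.00177). Tut7, which adds uridines to histone mRNA, differed by -0.34 ± 0.08 (SE, limma adjusted p = 0.0148), and Upf1, the helicase required for its decay, rose by 0.40 ± 0.07 (SE, limma adjusted p = 0.0053). For all 3 genes the groups did not overlap.

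Of 17 chaperone genes tested 5 rose (29.4%) and 2 fell (11.8%), against 10.6% and 9.16% of all genes tested. Chaf1a, the large subunit of the assembly factor CAF-1, stood at 4756, 5484, 5006 and 4247 in WT and 7017, 10462, 7793 and 7773 in IL-6 KO tumor, a rise of 0.75 ± 0.12 (SE, limma adjusted p = 0.00461). Chaf1b rose by 0.30, Ssrp1, a subunit of FACT, by 0.44, Nap1l4 by 0.52 and the importin Ipo4 by 0.33 (limma, adjusted p from 0.00176 to 0.0204). Asf1a and Anp32e, a chaperone that removes H2A.Z, had differences of -0.47 and -0.21 (limma, adjusted p = 0.0088 and 0.0257). Of 24 S phase genes 7 were called higher and none lower (limma), and 7 had a difference below 0, of which 2 had an unadjusted p under 0.05. That is 29.2% called higher against 10.6% of all genes tested, with a median of 0.06 over the 24 against -0.01 over all genes. Among them were Mcm2, Mcm3, Mcm5 and Mcm7 of the replicative helicase, at 0.44, 0.23, 0.43 and 0.31. The other subunits of that helicase were not called and had differences below 0, Mcm4 at -0.08 ± 0.05 (SE, limma adjusted p = 0.32) and Mcm6 at -0.19 ± 0.06 (SE, limma adjusted p = 0.0591). For Mcm4 and for Mcm6 every IL-6 KO library lay below every WT library. The nucleoside transporter Slc29a1 had the smallest p (0.45 ± 0.08, SE, limma adjusted p = 0.00522), and Gins2 and Cdc45 were the other genes called.

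**Figure D4:**
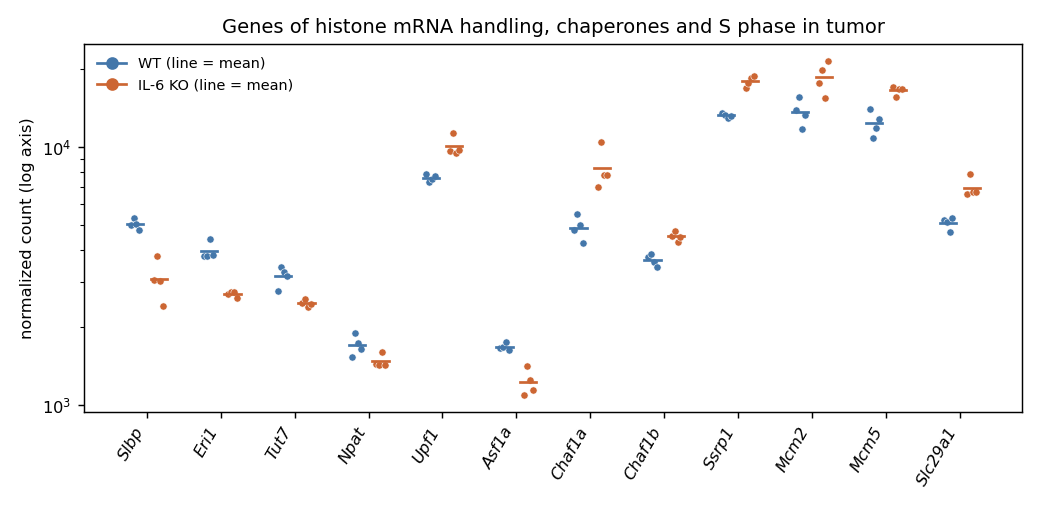
Normalized counts (log axis) in the tumor libraries of 12 genes of histone mRNA handling (Slbp to Upf1), chaperones (Asf1a to Ssrp1) and S phase (Mcm2 to Slc29a1), with 4 points and a line at the mean per genotype. Slbp, Eri1, Tut7 and Asf1a lie lower in IL-6 KO tumor, and Upf1, Chaf1a, Chaf1b, Ssrp1, Mcm5 and Slc29a1 lie higher without overlap.

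Annotated 3' UTRs of some clustered genes run past the stem-loop to a distant end. A split at an annotated 3' UTR of 200 bases was chosen after the values were known, and so no test was made. Of the 22 replication-dependent genes above it, 12 were called higher in IL-6 KO tumor (54.5%) and 2 lower (9.09%). Their median log2 difference was 0.47. Of the other 39 genes 11 were higher (28.2%) and 4 lower (10.3%), with a median of 0.22. Of all genes tested, 10.6% were higher and 9.16% lower. Across the 61 genes the difference had a Spearman's rho of 0.26 with the annotated 3' UTR length. The longest were those of H1f3 (4931 bases), H4f16 (2515), H2bc21 (2192), H2ac6 (2058) and H2bc6 (1906). Of these H2bc21 was not called, at -0.05 ± 0.21 (SE, limma adjusted p = 0.888), nor was H2aw (1700 bases), at 0.42 ± 0.18 (SE, limma adjusted p = 0.127). Counts were per gene, so that reads before and after the stem-loop were not separated.

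The same comparison in stroma asked whether histone transcripts of the non-leukemic marrow cells differed between hosts. None of the 70 members tested was called (limma), against 0.00820% (1 gene) of 12202 genes tested. At an unadjusted p under 0.05 there were 19 members, 2 higher and 17 lower, against 9.15% of all genes in either direction. The median log2 difference of the members was -0.59, and of all genes -0.01. It was -0.39 without IL-6 KO stroma 1 and between -0.76 and -0.46 without any other library. Every IL-6 KO library lay below every WT library for 11 members and above for 1, against 3.25% and 2.54% of all genes. All 48 replication-dependent genes other than H4 had a difference below 0, as did 7 of 13 H4 genes.

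H2ac8 stood at 1335, 1402, 1292 and 1274 in WT and 220.0, 720.2, 467 and 571 in IL-6 KO stroma, the smallest p of the members, with a difference of -1.54 ± 0.37 (SE, limma adjusted p = 0.302). H3c8, at 1029.9, 1185, 925 and 925 in WT and 381, 661, 481 and 435 in IL-6 KO stroma, and H2bc12, at 1498, 2061, 1011 and 1488 in WT and 366, 800.3, 712 and 687 in IL-6 KO stroma, had groups that did not overlap either. Their differences were -1.08 ± 0.29 (SE, limma adjusted p = 0.324) and -1.25 ± 0.34 (SE, limma adjusted p = 0.324). None of these 3 genes was called in tumor. The largest difference was that of Hist1h2br, at 34.7, 53.2, 20.2 and 142 in WT and 8.66, 0, 7.1 and 0 in IL-6 KO stroma (difference -4.05, limma adjusted p = 0.324), with few counts in any library. The groups of H1f2, the H1 gene with the highest count, overlapped at 13049.9, 16220.4, 10873 and 12890.3 in WT and 6361, 11656, 15250.4 and 8135 in IL-6 KO stroma (difference -0.42 ± 0.34, SE, limma adjusted p = 0.724).

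H4c12, the H4 gene with the largest rise in tumor, stood in stroma at 1353, 1332, 1741 and 1675 in WT and 4967, 6875, 8159 and 753 in IL-6 KO stroma, so that IL-6 KO stroma 1 to 3 were all above the WT libraries and IL-6 KO stroma 4 was below them. The difference was 1.33 ± 0.60 (SE, limma adjusted p = 0.537) with all libraries and 2.11 without IL-6 KO stroma 4 (limma, adjusted p = 0.0488), where it became the single member called. Hist1h4m was also above the WT libraries in IL-6 KO stroma 1 to 3 and below them in 4, at 3615, 5056, 4435 and 6457 in WT and 9276, 11283, 12162 and 2113 in IL-6 KO stroma (difference 0.59 ± 0.50, SE, limma adjusted p = 0.737), and so was H2afz, at 752, 750.1, 753 and 939 in WT and 1561, 1631, 1565 and 691 in IL-6 KO stroma (difference 0.70 ± 0.33, SE, limma adjusted p = 0.555). H3f3b was above WT in all 4 IL-6 KO libraries, at 1149, 1350.0, 1271 and 1099.7 in WT and 1857, 2445, 1845 and 1412 in IL-6 KO stroma, with a difference of 0.61 ± 0.28 (SE, limma adjusted p = 0.537).

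Class totals in stroma spread more than in tumor. The replication-dependent genes summed to 155770.1, 183514, 128846 and 175262 in WT and 81546, 146576, 175535 and 91197 in IL-6 KO stroma, with IL-6 KO stroma 1 and 4 lowest. The H2B total was 22852 ± 3351 in WT and 13889 ± 3765 in IL-6 KO stroma, a log2 difference of -0.72 and the one class without overlap. H1, H2A and H3 totals differed by -0.50, -0.65 and -0.41, and the H4 total by 0.24, all with overlap. With 1 library left out the H4 value ranged from 0.02 (without IL-6 KO stroma 3) to 0.447 and the H3 value from -0.648 to -0.243. As a share of all normalized counts H4 genes took 0.165% to 0.322% in WT and 0.0552% to 0.112% in IL-6 KO stroma. This was lower without overlap and opposite in direction to the total, but it was not particular to H4. All replication-dependent genes took 0.808% to 1.90% in WT and 0.185% to 0.397% in IL-6 KO stroma. Variants took 0.049% to 0.111% and 0.0195% to 0.0252%, while their total differed by 0.002 on the log2 scale. The summed counts of all genes, by which shares are divided, were larger in IL-6 KO stroma. The 13 erythroid genes summed to 141139, 182457, 140267 and 201066 in WT and 63967, 153299.8, 250857 and 60442 in IL-6 KO stroma, with the same 2 libraries lowest, and the 15 neutrophil genes to between 8076 and 15520.2 in WT and between 8324 and 33984 in IL-6 KO stroma. Their part in the histone values was not tested. Of the 24 S phase genes none was called, and 18 had a difference below 0 with a median of -0.35. Slbp differed by -0.48 ± 0.35 (SE, limma adjusted p = 0.7) and Npat by -0.78 ± 0.56 (SE, limma adjusted p = 0.688). Mcm2 was above the WT libraries in IL-6 KO stroma 1 to 3 and within their range in 4, at 262, 1047, 251 and 501 in WT and 3674, 3541, 1840.2 and 308 in IL-6 KO stroma (difference 1.93 ± 0.71, SE, limma adjusted p = 0.458). Among chaperones the smallest p was that of Tonsl (-1.65 ± 0.41, SE, limma adjusted p = 0.324).

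Whether the genotype difference itself differed between compartments was tested in a fit over all 16 libraries. Tumor and stroma libraries that may come from the same mouse were not paired in it, as the labels give no pairing. With same-numbered libraries of a genotype as a block, the count of called members was 0 as well. None of 69 members was called (limma), against 0.00919% (1 gene) of 10887 genes tested. At an unadjusted p under 0.05 there were 28 members, against 8.76% of all genes. The tumor difference minus the stroma difference was above 0 for 61 of the 69, with a median of 0.80 against 0.04 over all genes. The smallest p was that of H2bc12, at 1.24 ± 0.31 (SE, limma adjusted p = 0.249), and H2ac6, called in tumor, had 1.55 ± 0.42 (SE, limma adjusted p = 0.318). For H4c12 the value was -0.15 ± 0.57 (SE, limma adjusted p = 0.97), the tumor and stroma differences being 1.18 and 1.33. Macroh2a2 had differences of opposite sign, -1.62 in tumor and 1.17 in stroma, with a value of -2.80 ± 1.38 (SE, limma adjusted p = 0.587). Across the 60 replication-dependent genes tested in both compartments the tumor and stroma differences had a Spearman's rho of 0.35, as a description over genes that share libraries.

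**Figure D5:**
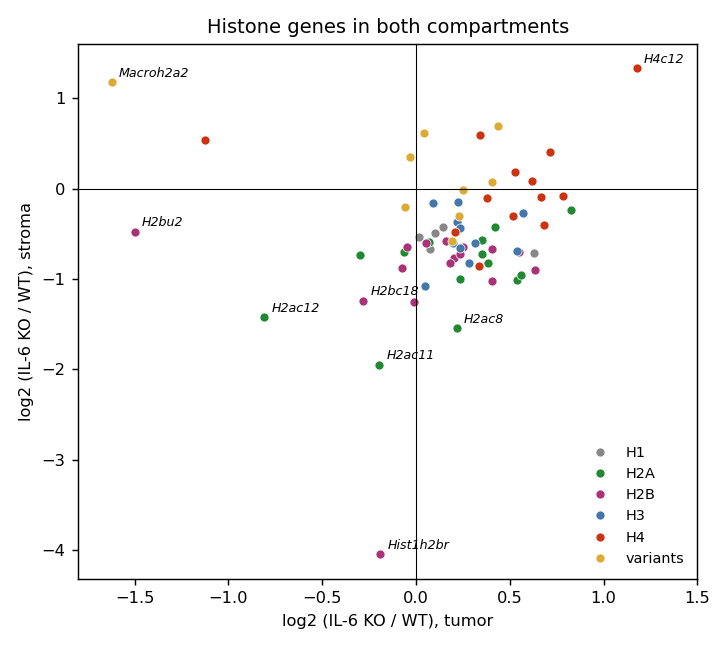
Log2 difference (IL-6 KO over WT) in tumor (horizontal) and stroma (vertical) of the histone genes tested in both tables, 1 point per gene, coloured by replication-dependent class or variant, without H3c14. Most points lie to the right of 0 in tumor and below 0 in stroma, and H4c12 is farthest toward the upper right.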

How the data were processed

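RNA of sorted tumor and stroma cells was sequenced in single-end reads of 75 nt from rRNA-depleted, directional libraries. The authors quantified reads with salmon 1.3.0, with corrections for sequence and GC bias, against mm10, and deposited normalized counts (a signal without a fixed unit) scaled with DESeq2 1.28.1 in each compartment. Other deposited files hold the authors' own fold changes and p-values and were not used. Here, log2(normalized count + 1) of genes with a mean over 10 was fitted with limma 3.58.1 in R 4.3.3, with moderated variances and Benjamini-Hochberg adjustment over all genes tested. A fold on this scale understates changes of low genes. The difference between compartments was tested in 1 fit over all 16 libraries with array weights estimated per compartment. The procedure was tested on simulated data. Named in full were called members with a mean of at least 50 (up to 8 per direction by smallest p), the most abundant member of each class, the variants, and Slbp, Npat and up to 5 further supply genes by smallest p. Any other member or gene with values was chosen after its values were seen. Shared sequence was counted as 75-base stretches of GENCODE M21 transcripts. H1f10 and Hist1h2ao were not analysed here. Alternatives were other pseudocounts, filters and scalings, array weights (or none in the fit over 16 libraries), a replicate block, removal of trends with GC content and length, and leaving out each library. The members and lists were chosen with earlier results of these data known.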

Additional observations from a re-analysis of the deposited data

Results flagged for a closer look

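In 9 of 106 groups of 4 libraries the highest or lowest library stood apart from the other 3 by Dixon's criterion at 95%. Chance sets a library apart in about 1 of 20 groups. WT tumor 1 was apart for H4c11, at 12264, against 10253 to 10401 in the other 3 libraries, and for the H4 total, at 339734, against 295532 to 301145 in the other 3 libraries. IL-6 KO tumor 2 was apart for Hist1h4m, at 72509.9, against 76182 to 76787 in the other 3 libraries, and for H2ac12, at 5727, against 3316 to 3555 in the other 3 libraries. IL-6 KO tumor 1 was apart for H2ac21, at 1065, against 1117 to 1126 in the other 3 libraries, and for the H2B total, at 281378, against 258160.2 to 259764 in the other 3 libraries. In stroma, H2afz was apart in WT stroma 4, at 939, against 750.1 to 753 in the other 3 libraries, and in IL-6 KO stroma 4, at 691, against 1561 to 1631 in the other 3 libraries. Macroh2a1 was apart in IL-6 KO stroma 4 as well, at 1160.1, against 444 to 531 in the other 3 libraries.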

How the results depend on the processing

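In tumor, 26 members were higher and 7 lower, against 10.6% and 9.16% of all genes tested. Other pseudocounts, filters and centring gave 26 or 27 higher and 6 or 7 lower, against 10.2% to 13.8% and 8.8% to 9.94% of all genes. Array weights gave 39 higher and 7 lower, and the shares of all genes rose too, to 15.3% and 13.4%. Quantile normalization left 16 higher, and removal of trends with GC content and length left 17, against 9.49% and 10.1% of all genes. Leaving out 1 library gave 19 to 42 called members, 16 to 36 higher and 3 to 6 lower. Of all genes, 5.74% to 12.9% were then higher and 5.06% to 10.0% lower. Restricting members to those with at least 50% unique stretches, an alternative chosen after seeing the data, left 45 members, of which 19 were higher and 4 lower. With the replicate number as a block 28 were higher and 4 lower, against 8.4% and 6.99% of all genes. However, same-numbered libraries of WT and IL-6 KO tumor deviated together with correlations of only -0.027 to 0.016, and the labels give no pairing. In stroma the count was 0 to 1 on leaving out a library, the 1 being H4c12. As means of log2 counts, tumor differences were 0.108 for all replication-dependent genes, 0.143 for H2A, 0.06 for H2B, -0.278 for H3 and -0.018 for variants, whose total differed by 0.126 without its largest member. The cause was not tested. The sign turned for genes that lay near 0 or were not called otherwise, and for H3c2. In tumor, quantile normalization gave -0.0423 for H1f2, -0.0115 for H3c2 and -0.0221 for H3f3b. Removal of trends gave -0.0221 for H1f2, -0.0173 for H3c2, 0.0708 for H2afv, -0.114 for H2afx and 0.125 for H3f3a. In stroma H2afj was -0.000106 and -0.0285 under these settings, and H3f3a 0.0264 with trends removed. Leaving out 1 library gave -0.126 to 0.0195 for H3f3a in tumor and, in stroma, -0.23 to 0.207 for H1f0, -0.181 to 0.341 for H2afj, -0.0298 to 0.701 for H2afv and -0.482 to 0.214 for H3f3a. Without counts, no counting error could be given.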
